A study of Homo sapiens with 9 samples.

Results

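The collagen genes were followed in LAN5 cells, an established human neuroblastoma line, after knockdown of the transcription factors MYCN or HAND2. Members were all genes of the deposited table whose symbol has the form COL, a number, A, a number: 34 of 25084 genes, a rule on symbols alone that uses no measured value. Total RNA was sequenced 72 h after small interfering RNA (siRNA) was delivered by nucleofection, a form of electroporation. There were 3 libraries per group: a control siRNA (siCTR), 1 siRNA against MYCN (siMYCN_2, here siMYCN) and 1 siRNA against HAND2 (siHAND2_3, here siHAND2). All groups shared the cell line, the medium with fetal calf serum and the harvest time. With a single siRNA per target, effects of the target and of the siRNA itself cannot be told apart. Nothing states that the 3 libraries came from separate cultures, so the p-values measure the spread between these libraries, which may be technical.

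Collagens are secreted or membrane-bound proteins of the extracellular matrix in which chains wind into a triple helix. Some types are made of identical chains and others need partner chains from different genes. Fibrillar types give tissues tensile strength, type IV forms the network of basement membranes, type VI makes beaded filaments next to cells, and fibril-associated types decorate fibrils. In neuroblastoma much of the tumour's collagen is known to come from stromal cells, while cell lines themselves vary in the collagens they express.

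Values were CPM, reads per gene after each library was scaled to a common total. Between 21.1 M and 32.7 M reads per library had been assigned to genes, as read from the smallest steps of the CPM values, so 1 CPM stood for 21.1 to 32.7 reads, with a counting error of 17.5% to 21.8%. Each targeted gene was lower with its own siRNA, and MYCN was lower still with the HAND2 siRNA: MYCN stood at 70.0% of the siCTR mean under siMYCN and at 49.6% under siHAND2, and HAND2 at 114% under siMYCN and 54.2% under siHAND2. Both factors were thus lower under siHAND2, so their effects cannot be told apart there or in the contrast between the knockdowns. The neuroblastoma markers (6 of 6 measured, CHGA, ELAVL4 and STMN2 among them) summed to 2107 to 2220 CPM under siCTR, 2490 to 2599 under siMYCN and 2185 to 2244 under siHAND2. Under siMYCN 5 of the 6 rose and none fell. Under siHAND2 1 rose and 2 fell: STMN2 went from 177 ± 11.2 to 343 ± 23.9 CPM (0.95, limma, adjusted p = 1.81e-09), DBH, which makes noradrenaline, from 263 ± 18.2 to 130.1 ± 5.65 (-1.01, adjusted p = 6.84e-10), and TH, the first enzyme of that pathway, from 2.95 ± 0.363 to 1.43 ± 0.219 (-0.70, adjusted p = 0.000174). Markers of endothelial cells (4 of 5 measured) summed to between 0.52 and 1.19 CPM, of leukocytes (4 of 5 measured) to between 0.538 and 0.886 CPM, and of Schwann cells (6 of 6 measured) to between 2.28 and 3.79 CPM over the 9 libraries. The defining endothelial and leukocyte genes PECAM1, CDH5 and PTPRC had group means of at most 0.0588 CPM.

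Most of the 34 collagen genes reached a low level, but few were abundant. Other human collagen genes, COL2A1, COL4A5 and COL11A1 among them, were not listed, so their levels are not known. Of the 34, 21 were tested because at least 3 of the 9 libraries held 1 CPM or more (61.8%, against 57.8% of all genes in the table). The other 13 were seen in some library and lay below that level, and none was at 0 throughout. Whether genes without reads were left out before deposit is not stated, so this absence of zeros carries no weight. In all 9 libraries, 16 genes held at least 1 CPM and 6 held at least 5 CPM: COL4A1, COL4A2, COL6A1, COL6A2, COL6A6 and COL26A1. Those 6 were also the only members with a mean of at least 10 CPM.

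**Figure D1:**
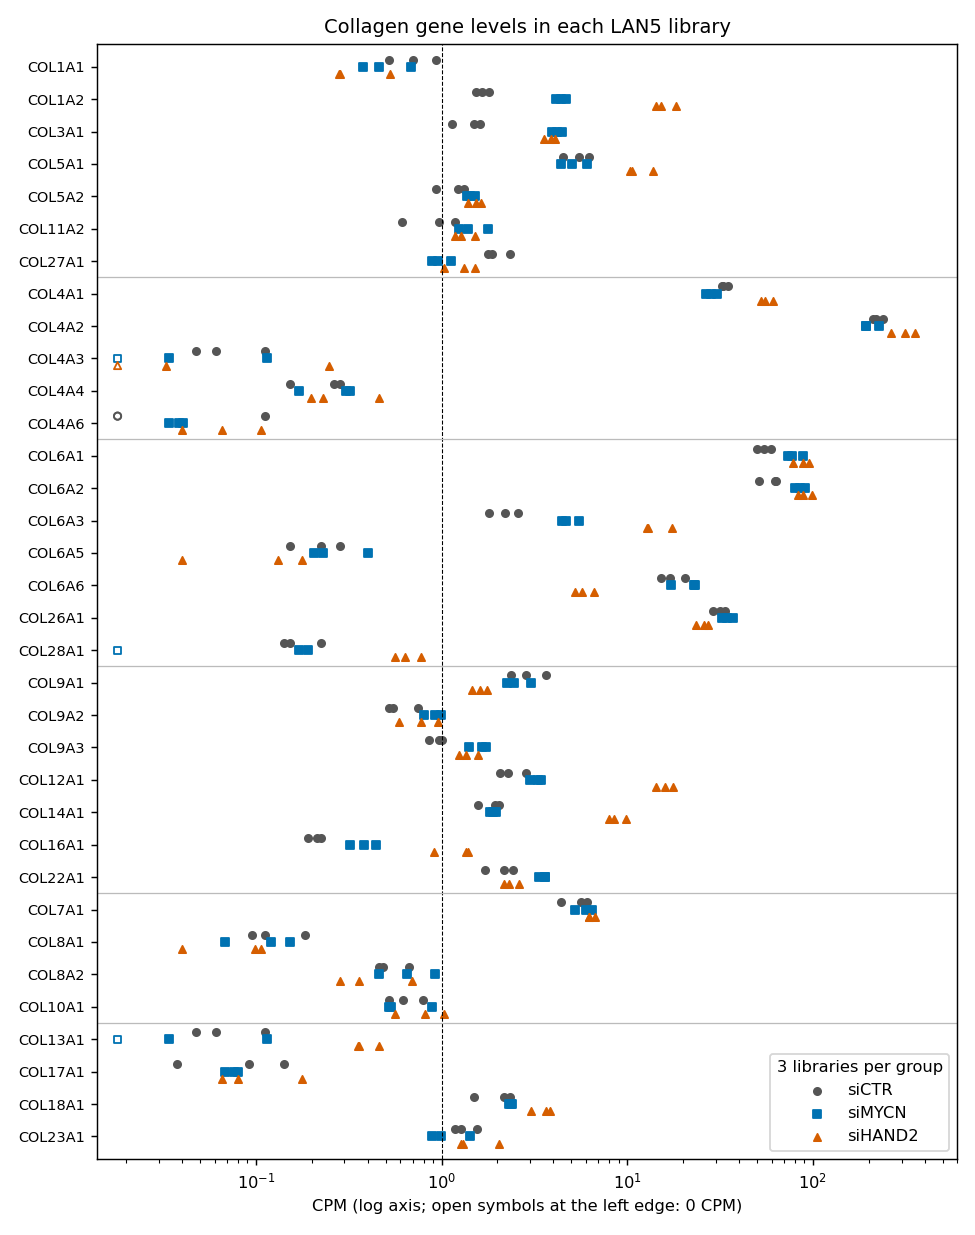
CPM of each of the 34 collagen genes in the 9 libraries on a log axis, with circles for siCTR, squares for siMYCN and triangles for siHAND2, 3 libraries each; genes are grouped by collagen class, the dashed line marks 1 CPM and open symbols at the left edge are values of 0. COL4A2 lies highest in every library, and the triangles of COL1A2, COL6A3, COL12A1, COL14A1, COL16A1, COL28A1 and COL13A1 stand to the right of the other groups while those of COL6A6 stand to the left.

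Genes were ranked by level only per length, as CPM per kilobase of the reference transcript. In siCTR the order began with COL4A2 at 34.6 ± 2.29 CPM per kb (SD, n = 3 libraries here and below). COL6A2 followed at 17.1 ± 1.99, COL6A1 at 13.0 ± 1.09, COL26A1 at 10.5 ± 0.77, COL4A1 at 5.11 ± 0.228 and COL6A6 at 2.02 ± 0.311 CPM per kb. Each of these 6 lay above the next in every siCTR library. COL9A1 (0.801 ± 0.177), COL5A1 (0.64 ± 0.101) and COL7A1 (0.58 ± 0.095) came next, with libraries that overlapped each other. The other 25 genes were at or below 0.462 CPM per kb under siCTR. The collagens of LAN5 cells were thus, by transcript level, chiefly those of basement membrane and beaded filaments, and the chains of type I and type III fibrils were minor ones.

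The sum of CPM over all 34 genes was 481, 456 and 430.5 in the siCTR libraries, 546, 483 and 481 under siMYCN and 748, 668 and 599 under siHAND2. All siHAND2 libraries lay above all others, whereas the lowest siMYCN library lay just below the highest of siCTR. COL4A2 alone gave 48.8 ± 0.923% of this sum under siCTR, 40.7 ± 0.867% under siMYCN and 46.0 ± 1.78% under siHAND2, a share of reads in which long transcripts weigh more. Without COL4A1 and COL4A2 the sums were 207, 206 and 187 under siCTR, 288, 262 and 259 under siMYCN and 334, 302 and 280.6 under siHAND2, so that both knockdowns then lay above siCTR in every library. In such bulk RNA, a changed share of cells that express a gene and a changed level per cell cannot be told apart.

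Each contrast was tested with limma on log2(CPM + 1) over all 14495 genes that passed the same filter, with Benjamini-Hochberg adjustment over those genes and genes with an adjusted p under 0.05 are referred to as called. Both contrasts against siCTR use the same control libraries, so they are given side by side and not as independent evidence. For genes near 1 CPM the added 1 makes a fold change on this scale too small. The shares of all tested genes called, given next, also apply to the counts of collagen classes, pathway lists and markers. In siHAND2 against siCTR, 15 of the 21 tested collagen genes were called, 11 higher and 4 lower, where 29.9% of all tested genes were called, 18.1% higher and 11.8% lower. The median log2 fold change was 0.47 over the 21 and 0.04 over all genes. In siMYCN against siCTR, 10 were called, 8 higher and 2 lower, where 35.9% of all genes were called, 24.5% higher and 11.4% lower; the medians were 0.17 and 0.06. Larger changes set the collagen genes further from the background: a called log2 change of at least 0.5 in either direction was seen in 12 of 21 under siHAND2 (5.52% of all genes) and in 7 of 21 under siMYCN (4.75% of all genes). A rise of at least 1 was called in 5 of 21 under siHAND2 (0.69% of all genes), COL1A2, COL12A1, COL6A3, COL14A1 and COL3A1, and in 2 of 21 under siMYCN (0.228% of all genes), COL3A1 and COL1A2. All 3 libraries of a knockdown lay on one side of all 3 siCTR libraries for 18 of 21 genes under siHAND2 (42.4% of all genes) and for 12 of 21 under siMYCN (49.5%). The direct contrast of siHAND2 with siMYCN called 12 of 21, 8 higher and 4 lower under siHAND2, against 26.9% of all genes (11.4% higher and 15.5% lower). In that contrast 8 of 21 were called with a change of at least 0.5 (5.8% of all genes) and 5 with a rise of at least 1 (0.511%), and the libraries of 12 of 21 did not overlap (38.7% of all genes).

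**Figure D2:**
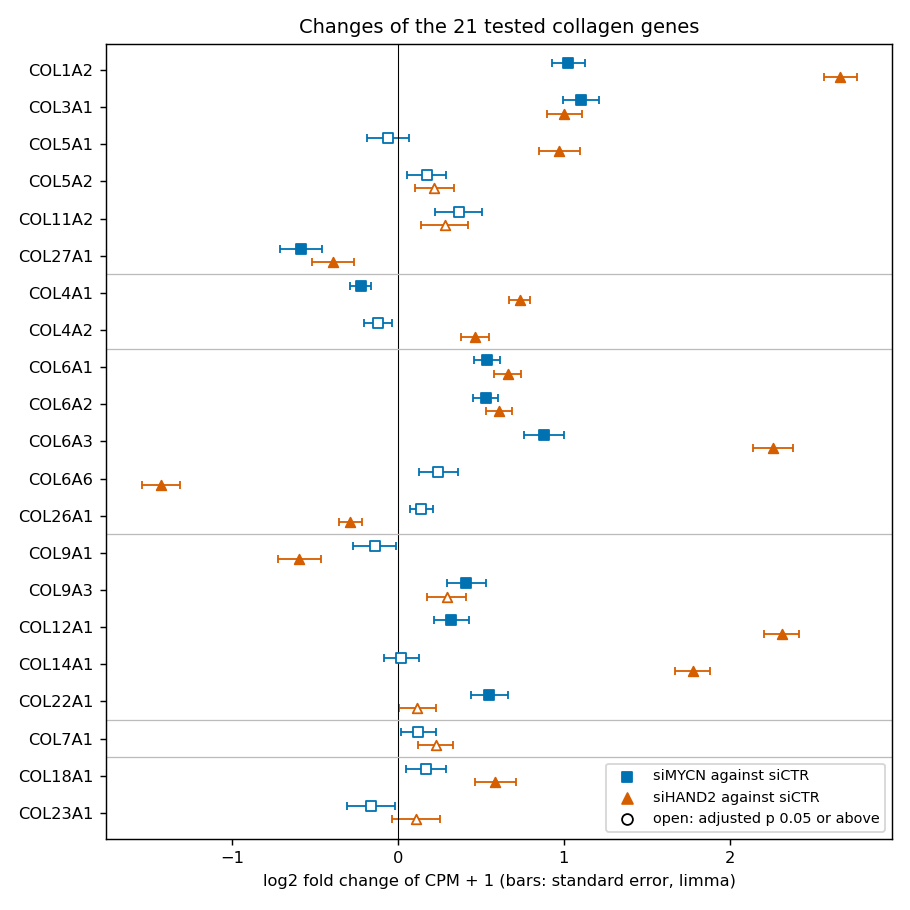
Log2 fold change of CPM + 1 against siCTR for the 21 tested collagen genes, squares for siMYCN and triangles for siHAND2, with the standard error of limma as bars; filled symbols passed an adjusted p of 0.05. The siHAND2 values run from -1.43 (COL6A6) to 2.67 (COL1A2), and those of siMYCN from -0.58 (COL27A1) to 1.11 (COL3A1).

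Among the fibrillar collagens, the class that builds banded fibrils, COL1A2 and COL3A1 had the largest log2 rises against siCTR. Of the 6 tested fibrillar genes 3 rose and 1 fell under siHAND2, and 2 rose and 1 fell under siMYCN. COL1A2 (chromosome 7, 94394895 to 94431227, GRCh38), the partner chain of type I collagen, measured 1.53, 1.65 and 1.80 CPM under siCTR, 4.15, 4.41 and 4.69 under siMYCN and 18.3, 15.2 and 14.3 under siHAND2. The groups did not overlap at any point, and the siMYCN mean was 2.66-fold and the siHAND2 mean 9.61-fold that of siCTR. Its log2 change was 1.03 under siMYCN (standard error 0.10, limma, adjusted p = 1.14e-06) and 2.67 under siHAND2 (standard error 0.10, adjusted p = 1.26e-11), and the 2 knockdowns differed by 1.64 (adjusted p = 2.07e-09). The gene for the main chain of type I, COL1A1 (chromosome 17, 50184101 to 50201632), did not follow. It measured 0.703, 0.936 and 0.522 CPM under siCTR, 0.685, 0.46 and 0.377 under siMYCN and 0.526, 0.279 and 0.283 under siHAND2, below 1 CPM in all 9 libraries and therefore untested. With no filter on low values its log2 change was -0.33 under siHAND2 (limma, adjusted p = 0.0524) and -0.19 under siMYCN (adjusted p = 0.292). Per kilobase, COL1A2 stood 2.87 ± 1.03-fold above COL1A1 under siCTR, 10.9 ± 3.74-fold under siMYCN and 54.4 ± 12.2-fold under siHAND2, and the 3 groups of ratios did not overlap.

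COL3A1 (chromosome 2, 188974373 to 189012746), the single chain of type III collagen, rose to a like level in both knockdowns. It measured 1.62, 1.497 and 1.14 CPM under siCTR, 3.95, 4.45 and 4.18 under siMYCN and 4.08, 3.54 and 3.90 under siHAND2. Both knockdowns lay wholly above siCTR and overlapped each other. The log2 change was 1.11 under siMYCN (standard error 0.11, limma, adjusted p = 1.15e-06) and 1.00 under siHAND2 (standard error 0.11, adjusted p = 2.44e-06), and the difference between them was -0.10 with a standard error of 0.11 (adjusted p = 0.525). COL5A2, a chain of type V collagen that lies 19151 bases from COL3A1 on the other strand, did not pass the test in either contrast. It measured 1.22, 0.936 and 1.33 CPM under siCTR, 1.37, 1.42 and 1.51 under siMYCN and 1.38, 1.63 and 1.52 under siHAND2; the log2 values were 0.17 and 0.22 (limma, adjusted p = 0.274 and 0.177).

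COL5A1 (chromosome 9, 134641803 to 134844843), the other type V chain and a regulator of fibril diameter, rose under siHAND2. It measured 6.21, 5.50 and 4.51 CPM under siCTR, 6.04, 5.02 and 4.39 under siMYCN and 13.8, 10.3 and 10.7 under siHAND2. The siHAND2 libraries lay above all others (log2 change 0.97, standard error 0.13, limma, adjusted p = 1.93e-05), while siMYCN and siCTR overlapped (-0.06, adjusted p = 0.756), and the 2 knockdowns differed by 1.03 (adjusted p = 9.52e-06). COL27A1 (chromosome 9, 114155537 to 114312511), a fibrillar chain known from cartilage, went the other way. It measured 1.77, 1.87 and 2.32 CPM under siCTR, 0.886, 0.959 and 1.13 under siMYCN and 1.51, 1.31 and 1.03 under siHAND2. Its fall under siMYCN was 0.58 on the log2 scale (standard error 0.13, limma, adjusted p = 0.00194). In siHAND2 the value was -0.39 (adjusted p = 0.0289), a call lost without siCTR replicate 2 (-0.42), siCTR replicate 3 (-0.31), siHAND2 replicate 2 (-0.40) or siHAND2 replicate 3 (-0.31). COL11A2, a type XI chain, measured 0.924 ± 0.291 CPM under siCTR, 1.47 ± 0.278 under siMYCN and 1.32 ± 0.17 under siHAND2 and stayed at the edge of the threshold under siMYCN (0.37, limma, adjusted p = 0.0505; 0.0283 with replicate number as a block).

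**Figure D3:**
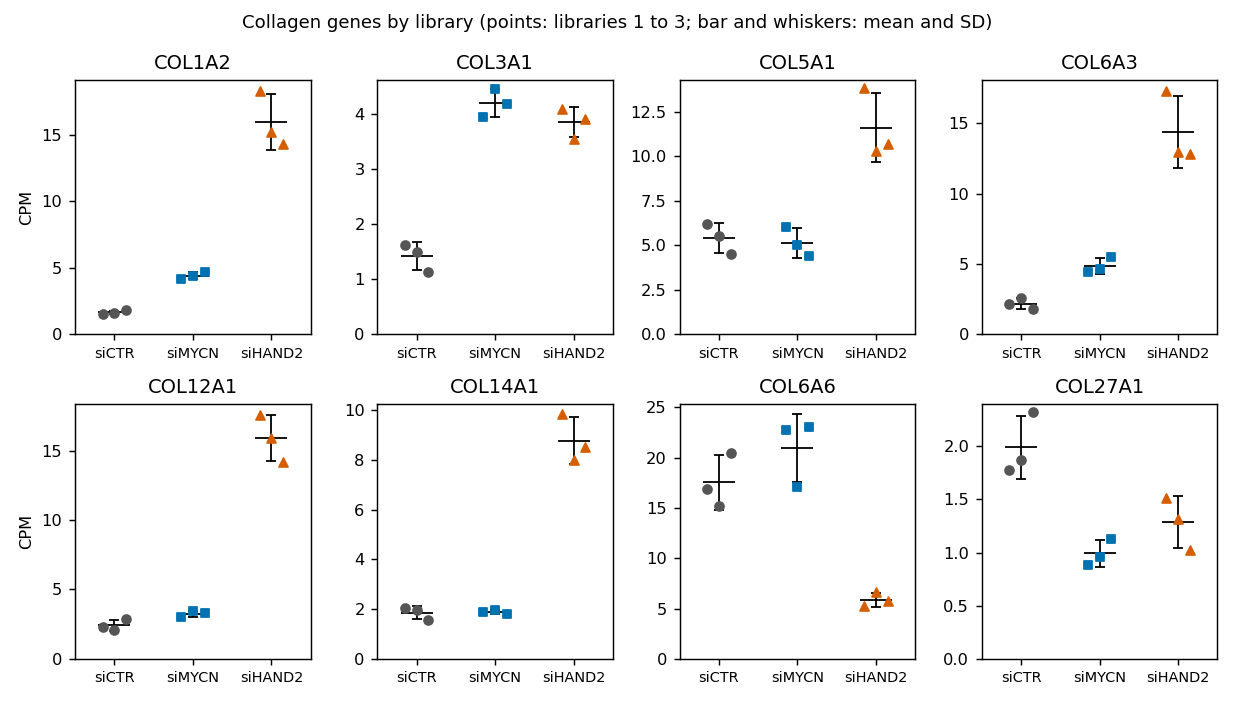
CPM of 8 collagen genes by library on linear axes that start at 0, with points for libraries 1 to 3 of each group and a bar with whiskers for mean and SD. COL1A2 and COL6A3 step up from siCTR to siMYCN and again to siHAND2, COL3A1 is raised alike in both knockdowns, COL5A1, COL12A1 and COL14A1 stand highest under siHAND2, and COL6A6 is lowest there.

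Type IV collagen, the scaffold of basement membranes, includes the gene with the highest level per kilobase, COL4A2, and both of its tested chains rose under siHAND2. COL4A1 (chromosome 13, 110148963 to 110307157) measured 35.1, 32.3 and 32.8 CPM under siCTR, 30.4, 26.7 and 28.4 under siMYCN and 61.3, 52.5 and 55.1 under siHAND2. Its log2 change was 0.73 under siHAND2 (standard error 0.06, limma, adjusted p = 2.64e-07) and -0.22 under siMYCN (standard error 0.06, adjusted p = 0.0127), and the direct contrast gave 0.96 (adjusted p = 7.82e-09). The siMYCN call was lost without siCTR replicate 1 (-0.19) or siMYCN replicate 2 (-0.18). COL4A2 (chromosome 13, 110305812 to 110513209), its obligate partner, measured 239, 218 and 211 CPM under siCTR, 228, 194 and 194 under siMYCN and 353, 313 and 263 under siHAND2. It rose by 0.47 under siHAND2 (standard error 0.08, limma, adjusted p = 0.000569) and its value under siMYCN was -0.12 (adjusted p = 0.295; 0.042 with replicate number as a block). The 2 knockdowns differed by 0.58 (adjusted p = 6.35e-05).

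COL4A1 and COL4A2 lie head to head and, as listed in the table, overlap by 1346 bases, although the main RefSeq starts do not, and no source used here states whether reads were counted by strand, so the reads of that stretch may have gone to either gene. Per kilobase COL4A2 exceeded COL4A1 6.76 ± 0.213-fold under siCTR, 7.31 ± 0.35-fold under siMYCN and 5.58 ± 0.645-fold under siHAND2. The other listed type IV chains were near the limit of detection, while COL4A5 was not listed and its level is not known. COL4A4 ranged from 0.153 to 0.461 CPM, COL4A3 from 0 to 0.248 and COL4A6 from 0 to 0.112 over the 9 libraries, where 3 reads correspond to 0.0917 to 0.142 CPM, and none of them passed the test when the filter was dropped.

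The start regions were set side by side because the 2 type IV genes rose together from starts 126 bases apart, and because both targeted factors belong to the helix-loop-helix family, whose members bind the E-box CANNTG. RefSeq (GRCh38.p14) held a start region for 24 of the 34 genes. Not matched were COL14A1, COL1A1, COL1A2, COL22A1, COL3A1, COL5A2, COL6A1, COL6A5, COL8A1 and COL9A3. Shown are the stretch between the COL4A1 and COL4A2 starts (chr13:110307158-110307283, plus strand) and the 250 bases before the start of COL12A1 (chr6:75206054-75206303, minus strand), COL6A2 (chr21:46097862-46098111, plus strand) and COL27A1 (chr9:114155287-114155536, plus strand). COL12A1 and COL6A2 are genes that rose, and COL27A1 is one that fell. Capitals mark CANNTG and the CCAAT box (CCAAT or ATTGG), searched on both strands.
COL4A1-COL4A2: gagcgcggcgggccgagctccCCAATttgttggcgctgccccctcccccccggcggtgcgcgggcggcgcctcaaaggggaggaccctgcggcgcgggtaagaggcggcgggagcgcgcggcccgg
COL12A1: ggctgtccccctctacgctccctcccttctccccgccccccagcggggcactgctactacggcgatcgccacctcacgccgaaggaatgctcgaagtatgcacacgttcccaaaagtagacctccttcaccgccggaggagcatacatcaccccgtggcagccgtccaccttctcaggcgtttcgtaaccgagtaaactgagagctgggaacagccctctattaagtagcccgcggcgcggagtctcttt
COL6A2: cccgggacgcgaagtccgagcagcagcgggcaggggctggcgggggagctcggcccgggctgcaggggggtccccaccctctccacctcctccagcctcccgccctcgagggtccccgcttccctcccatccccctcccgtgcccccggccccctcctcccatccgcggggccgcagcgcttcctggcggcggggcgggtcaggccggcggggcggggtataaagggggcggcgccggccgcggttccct
COL27A1: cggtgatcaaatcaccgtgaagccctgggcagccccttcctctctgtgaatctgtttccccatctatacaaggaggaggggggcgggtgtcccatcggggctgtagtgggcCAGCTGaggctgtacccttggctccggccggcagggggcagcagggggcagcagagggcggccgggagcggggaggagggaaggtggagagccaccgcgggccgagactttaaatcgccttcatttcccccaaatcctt

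The shared COL4A1-COL4A2 stretch holds 1 CCAAT box, no CANNTG and a GC content of 80.2%. A gene was counted as holding a motif if any of its start regions did. Of the 11 collagen genes higher under siHAND2, 7 had a start region. Of those, 0 of 7 held CANNTG in the 250 bases before the start. Of the 4 that were lower, 2 of 4 held it (COL27A1 and COL9A1). COL9A1 held it at chr6:70283198-70283447 but not at chr6:70303085-70303334. Over all 35116 start regions, 61.8% held CANNTG, 6.35% CACGTG (the form preferred by MYC proteins, itself a CANNTG), 12.1% CATCTG or CAGATG (also CANNTG forms) and 32.0% a CCAAT box. Among the 33 start regions of collagen genes 16 held CANNTG (48.5%, in 14 of 24 genes) and none held CACGTG. These counts say only which letters lie in these windows.

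Type VI collagen forms beaded microfilaments from chains of COL6A1, COL6A2 and COL6A3 or a relative of it. COL6A1, COL6A2 and COL6A3 rose in both knockdowns, while the relative COL6A6 fell under siHAND2. Of the 5 tested genes of type VI and the related chains, 3 rose under siMYCN and none fell, and 3 rose and 2 fell under siHAND2. COL6A1 (chromosome 21, 45981769 to 46005050) measured 59.3, 54.4 and 50.1 CPM under siCTR, 88.9, 77.3 and 73.2 under siMYCN and 94.9, 88.6 and 77.7 under siHAND2. COL6A2 (chromosome 21, 46098112 to 46132848), which follows COL6A1 on the same strand, measured 62.6, 63.2 and 51.1 CPM under siCTR, 90.4, 85.2 and 80.1 under siMYCN and 99.2, 88.7 and 83.0 under siHAND2. In both genes the knockdown libraries all lay above siCTR and overlapped each other. The log2 changes of COL6A1 were 0.54 under siMYCN (standard error 0.08, limma, adjusted p = 6.75e-05) and 0.66 under siHAND2 (adjusted p = 8.56e-06). Those of COL6A2 were 0.53 (standard error 0.08, adjusted p = 6.66e-05) and 0.61 (adjusted p = 1.71e-05). The pair kept a narrow ratio, COL6A1 to COL6A2 per kilobase, of 0.706 to 0.804 under siCTR, 0.744 to 0.806 under siMYCN and 0.767 to 0.819 under siHAND2.

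The large chain COL6A3 (chromosome 2, 237324003 to 237414207) moved much further than its partners. It measured 2.20, 2.58 and 1.80 CPM under siCTR, 4.43, 4.68 and 5.52 under siMYCN and 17.3, 12.9 and 12.8 under siHAND2. No 2 groups overlapped, and the siHAND2 mean was 6.54-fold that of siCTR. Its log2 change was 0.88 under siMYCN (standard error 0.12, limma, adjusted p = 3.96e-05) and 2.26 under siHAND2 (standard error 0.12, adjusted p = 8.11e-10), with 1.38 between the knockdowns (adjusted p = 2.32e-07). Per kilobase COL6A1 exceeded COL6A3 63.3 ± 9.17-fold under siCTR, 41.7 ± 8.52-fold under siMYCN and 15.4 ± 1.72-fold under siHAND2.

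COL6A6 (chromosome 3, 130560334 to 130678155), an alternative to COL6A3 in the type VI trimer, fell under siHAND2. It measured 16.9, 15.2 and 20.5 CPM under siCTR, 22.8, 17.1 and 23.1 under siMYCN and 5.26, 6.65 and 5.70 under siHAND2. All siHAND2 libraries lay below all others. The log2 change was -1.43 under siHAND2 (standard error 0.12, limma, adjusted p = 1.24e-07), and -1.67 against siMYCN (adjusted p = 1.32e-08). In siMYCN it was 0.24 (adjusted p = 0.117), a value that passed without siCTR replicate 3 (0.36) or siMYCN replicate 2 (0.38). Per kilobase the ratio of COL6A6 to COL6A3 was 10.1 ± 3.39 under siCTR, 5.25 ± 0.915 under siMYCN and 0.51 ± 0.13 under siHAND2, so that COL6A3 was the more abundant of the pair only in the siHAND2 libraries. COL6A5, the neighbour of COL6A6, was untested at 0.153, 0.225 and 0.285 CPM under siCTR, 0.403, 0.23 and 0.206 under siMYCN and 0.132, 0.0398 and 0.177 under siHAND2.

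**Figure D4:**
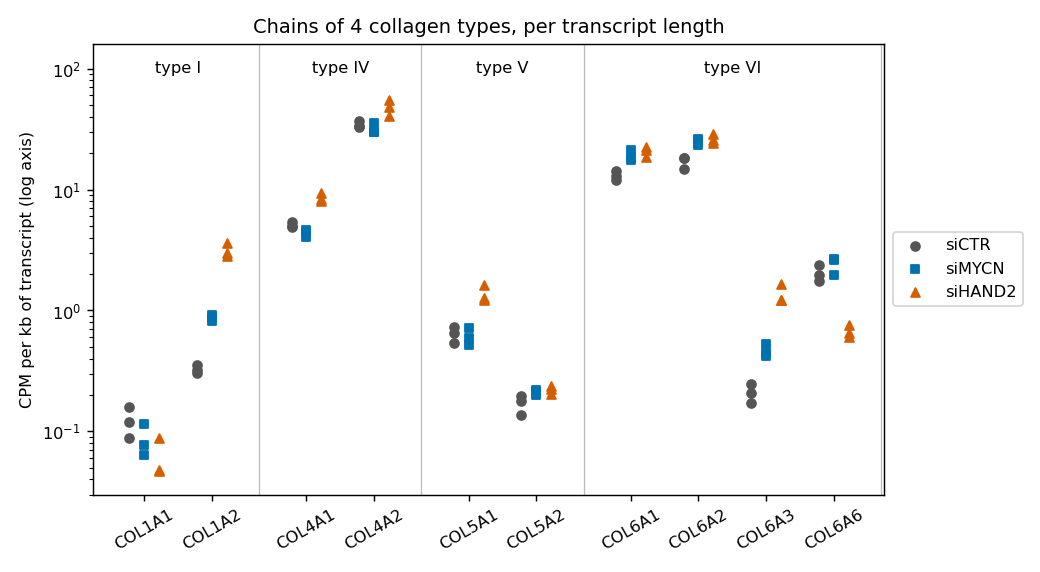
CPM per kilobase of reference transcript on a log axis for chains of collagen types I, IV, V and VI in each library, circles for siCTR, squares for siMYCN and triangles for siHAND2. COL1A2 and COL1A1 move apart, COL6A3 climbs towards COL6A1 and COL6A2, and COL6A6 drops below COL6A3 under siHAND2.

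COL26A1 and COL28A1 are less studied chains grouped here with type VI. COL26A1 (chromosome 7, 101362875 to 101559024) measured 31.8, 33.4 and 28.9 CPM under siCTR, 37.05, 32.5 and 34.6 under siMYCN and 27.3, 26.0 and 23.4 under siHAND2, where it was lower by a small step (-0.29, standard error 0.07, limma, adjusted p = 0.00573). It was lower still against siMYCN (-0.43, adjusted p = 0.000219). COL28A1 measured 0.153, 0.225 and 0.142 CPM under siCTR, 0, 0.192 and 0.171 under siMYCN and 0.559, 0.637 and 0.779 under siHAND2, below the filter. Without the filter its log2 change under siHAND2 was 0.50 (limma, adjusted p = 0.000612).

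Among the fibril-associated collagens, COL12A1 and COL14A1 rose strongly under siHAND2. Of the 5 tested genes of this class 2 rose and 1 fell there, and 3 rose under siMYCN. COL12A1 (chromosome 6, 75084326 to 75206053), a fibril-surface collagen of tendon and fascia, measured 2.29, 2.06 and 2.85 CPM under siCTR, 2.98, 3.41 and 3.32 under siMYCN and 17.6, 15.9 and 14.2 under siHAND2. The siHAND2 mean was 6.62-fold that of siCTR (log2 change 2.31, standard error 0.11, limma, adjusted p = 1.22e-10). The siMYCN libraries also lay above siCTR, by 0.32 (adjusted p = 0.0245). That smaller call was lost at a pseudocount of 5, with no filter, after median-ratio or quantile scaling (0.28 and 0.25), and without siCTR replicate 1 (0.30), siCTR replicate 2 (0.25), siMYCN replicate 2 (0.29) or siMYCN replicate 3 (0.31). COL14A1 (chromosome 8, 120059780 to 120373573), a close relative of COL12A1, measured 2.05, 1.95 and 1.57 CPM under siCTR, 1.89, 1.96 and 1.82 under siMYCN and 9.83, 8.01 and 8.503 under siHAND2. Its log2 change was 1.78 under siHAND2 (standard error 0.11, limma, adjusted p = 2.79e-09) and 0.02 under siMYCN (standard error 0.11, adjusted p = 0.902), and the difference between the knockdowns was 1.76 (adjusted p = 1.95e-09).

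The remaining fibril-associated genes changed less. COL22A1 (chromosome 8, 138588235 to 138914041), known from the junction of muscle and tendon, measured 2.17, 2.43 and 1.71 CPM under siCTR, 3.62, 3.60 and 3.36 under siMYCN and 2.60, 2.31 and 2.16 under siHAND2. It rose under siMYCN (0.55, standard error 0.11, limma, adjusted p = 0.00117) and was lower under siHAND2 than under siMYCN (-0.43, adjusted p = 0.00833). COL9A1 (chromosome 6, 70215061 to 70303083), a type IX chain of cartilage, measured 2.84, 3.67 and 2.37 CPM under siCTR, 3.02, 2.45 and 2.26 under siMYCN and 1.61, 1.75 and 1.45 under siHAND2. It fell under siHAND2 by 0.59 on the log2 scale (standard error 0.13, limma, adjusted p = 0.00251). Its partner COL9A3 measured 1.01, 0.973 and 0.854 CPM under siCTR, 1.65, 1.73 and 1.40 under siMYCN and 1.58, 1.35 and 1.24 under siHAND2. It was higher under siMYCN (0.41, adjusted p = 0.0119), with 0.30 under siHAND2 (adjusted p = 0.0698), and 155 of its bases overlap TCFL5 on the other strand. The third chain, COL9A2, stayed under the filter at 0.55, 0.749 and 0.522 CPM under siCTR, 0.805, 0.997 and 0.925 under siMYCN and 0.592, 0.956 and 0.779 under siHAND2. COL16A1 measured 0.214, 0.225 and 0.19 CPM under siCTR, 0.322, 0.383 and 0.445 under siMYCN and 1.38, 0.916 and 1.35 under siHAND2; only 2 libraries reached 1 CPM, and without the filter its log2 change under siHAND2 was 0.87 (limma, adjusted p = 1.17e-05).

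COL18A1 (chromosome 21, 45405165 to 45513720), a basement membrane multiplexin whose end fragment is endostatin, measured 1.501, 2.32 and 2.18 CPM under siCTR, 2.36, 2.39 and 2.31 under siMYCN and 3.02, 3.82 and 3.64 under siHAND2. It rose under siHAND2 (0.59, standard error 0.12, limma, adjusted p = 0.00166). The gene overlaps SLC19A1 on the other strand by 20149 bases, and SLC19A1 measured 35.4 ± 1.22 CPM under siCTR and 29.0 ± 3.31 under siHAND2, lower where COL18A1 was higher. COL7A1, the anchoring fibril collagen, measured 5.35 ± 0.881, 5.90 ± 0.642 and 6.40 ± 0.29 CPM under siCTR, siMYCN and siHAND2 and passed the test in neither contrast against siCTR (adjusted p = 0.397 and 0.121 in limma). The transmembrane collagen COL23A1 measured 1.34 ± 0.195, 1.10 ± 0.282 and 1.54 ± 0.431 CPM in the same order and did not pass either (adjusted p = 0.413 and 0.605). COL13A1, another transmembrane collagen, measured 0.0611, 0.112 and 0.0475 CPM under siCTR, 0, 0.115 and 0.0342 under siMYCN and 0.46, 0.358 and 0.354 under siHAND2, and without the filter its log2 change there was 0.37 (limma, adjusted p = 0.000804). COL10A1 (0.524 to 1.04 CPM, within the range of NT5DC1 on the other strand), COL8A2 (0.283 to 0.926), COL8A1 (0.0398 to 0.183) and COL17A1 (0.0374 to 0.177) overlapped between groups and were untested.

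Collagen chains are hydroxylated, glycosylated and folded in the endoplasmic reticulum before secretion, and most called genes of that machinery were lower in the knockdowns. Of 23 such genes 20 were tested. Under siHAND2 1 was higher and 10 were lower, where 18.1% and 11.8% of all tested genes were. Under siMYCN 2 were higher and 8 lower, where 24.5% and 11.4% of all tested genes were. The median log2 change was -0.17 under siHAND2 (0.04 over all genes) and -0.10 under siMYCN (0.06 over all genes). P4HA1, a catalytic subunit of collagen prolyl hydroxylase, fell from 81.4 ± 4.58 CPM under siCTR to 53.2 ± 2.95 under siMYCN (-0.60, limma, adjusted p = 6.22e-06) and 60.8 ± 7.01 under siHAND2 (-0.42, adjusted p = 0.000251). PLOD2, the lysyl hydroxylase of the telopeptides, fell from 93.7 ± 6.36 to 71.8 ± 2.37 (-0.38, adjusted p = 0.000588) and 57.4 ± 7.09 CPM (-0.70, adjusted p = 1.26e-06). Directly between the knockdowns 1 of the 20 was higher and 5 were lower under siHAND2, among them P4HA2, another catalytic subunit (-0.33, adjusted p = 0.000337), and PLOD2 (-0.32, adjusted p = 0.00261). The 1 gene of this list that was higher under siHAND2 than under siCTR was SERPINH1, the collagen chaperone HSP47, at 17.0 ± 0.738 CPM under siCTR and 22.03 ± 0.966 under siHAND2 (0.36, limma, adjusted p = 0.000546). It was also higher under siMYCN (20.7 ± 1.25 CPM, 0.27, adjusted p = 0.00396), and it is named here after its values were seen.

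Of 14 genes for processing and cross-linking outside the cell 10 were tested. Under siHAND2 5 were higher and 3 lower, where 18.1% and 11.8% of all tested genes were. Under siMYCN 2 were higher and 4 lower, where 24.5% and 11.4% of all tested genes were. TLL2, a proteinase of the tolloid family, stood at 7.98 ± 0.212 CPM under siCTR, 25.9 ± 0.46 under siMYCN (1.59, limma, adjusted p = 2.07e-10) and 21.8 ± 0.852 under siHAND2 (1.34, adjusted p = 1.22e-10). LOX, which cross-links fibrillar collagen, fell from 17.1 ± 1.01 to 8.98 ± 0.533 CPM under siMYCN (-0.86, adjusted p = 1.21e-06) and to 10.3 ± 1.19 under siHAND2 (-0.68, adjusted p = 1.22e-05). ADAMTS2, the proteinase for the amino-terminal propeptide, fell from 22.4 ± 2.36 to 13.2 ± 0.657 CPM under siHAND2 (-0.72, adjusted p = 9.86e-06). Between the knockdowns 2 were higher and 2 lower under siHAND2; at a mean of at least 5 CPM the larger ones were LOXL2, a relative of LOX (0.54, adjusted p = 0.000225), and ADAMTS2 (-0.52, adjusted p = 0.000268).

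Of 11 collagen receptor genes 7 were tested, with 3 higher and 1 lower in each knockdown. Over all tested genes 18.1% were higher and 11.8% lower under siHAND2, and 24.5% and 11.4% under siMYCN. ITGA1, a collagen-binding integrin subunit, rose from 83.6 ± 0.752 CPM under siCTR to 128 ± 9.26 under siHAND2 (0.61, limma, adjusted p = 3.63e-07) and 100.3 ± 6.23 under siMYCN (0.26, adjusted p = 0.00168). ITGA2, another such subunit, was the 1 lower under siHAND2. It went from 18.1 ± 1.32 CPM under siCTR to 14.4 ± 1.88 there (-0.31, limma, adjusted p = 0.0121). DDR2, a receptor kinase for fibrillar collagen, rose from 169 ± 1.48 to 212 ± 8.32 CPM under siHAND2 (0.32, adjusted p = 2.72e-05), and ITGB1, the partner of ITGA1, rose under siMYCN (0.26, adjusted p = 0.000134). DDR2 was the 1 receptor gene lower under siMYCN, at 154 ± 5.97 CPM (-0.13, limma, adjusted p = 0.0218). DDR2 and ITGA1 were the 2 receptor genes higher under siHAND2 than under siMYCN (0.46 and 0.35, limma, adjusted p = 4.68e-07 and 0.000149), with 1 lower. Of 10 genes for collagen breakdown and its inhibitors 5 were tested, 3 of them higher under siMYCN, 1 higher under siHAND2 and none lower in either. TIMP2, an inhibitor of matrix metalloproteinases, rose under siMYCN (0.38, limma, adjusted p = 6.39e-06) and siHAND2 (0.35, adjusted p = 1.59e-05). TIMP1 rose under siMYCN (0.31, adjusted p = 0.0149), and TIMP3 was lower under siHAND2 than under siMYCN (-0.37, adjusted p = 1.52e-05).

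**Figure D5:**
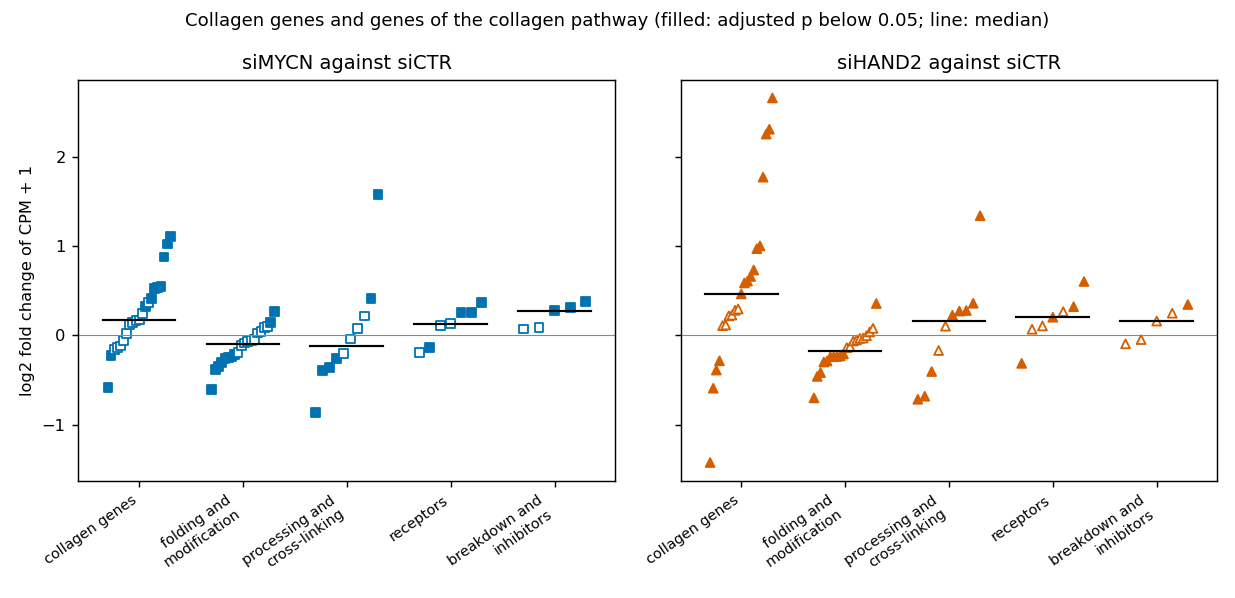
Log2 fold change of CPM + 1 against siCTR for each tested collagen gene and each tested gene of 4 collagen pathway lists, siMYCN on the left and siHAND2 on the right; filled symbols passed an adjusted p of 0.05 and the line is the median. In siHAND2 the collagen genes have a median of 0.47 and the folding genes one of -0.17.

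Most tested markers of fibroblasts rose in each knockdown, but not all. The list (7 of 8 measured) summed to 462 to 478 CPM under siCTR, 546 to 556 under siMYCN and 799.5 to 894.5 under siHAND2. Under siMYCN 5 of its 6 tested genes rose and none fell (24.5% and 11.4% over all tested genes). Those that rose there included FBLN1 (0.19, limma, adjusted p = 0.00695) and THY1 (0.25, adjusted p = 0.00598). Under siHAND2 4 of the 6 tested genes rose and 1 fell (18.1% and 11.8% over all tested genes). FBLN1 was not called, at 186 ± 8.16 CPM under siCTR and 199 ± 14.3 under siHAND2 (0.10, limma, adjusted p = 0.153). PDGFRA stood at 121 ± 4.49 CPM under siCTR and 341 ± 27.7 under siHAND2 (1.48, limma, adjusted p = 9.15e-12), PDGFRB at 89.8 ± 3.07 and 179 ± 17.3 (0.98, adjusted p = 3.84e-09), and DCN at 0.431 ± 0.0794 and 11.0 ± 0.781 (3.07, adjusted p = 1.26e-11). LUM also rose, THY1 fell from 65.4 ± 5.91 to 56.8 ± 3.66 CPM (-0.20, adjusted p = 0.027), and POSTN was near 0 under siCTR (0.0158 ± 0.0274) and at 0.426 ± 0.106 under siHAND2. Markers of mural cells (5 of 5 measured) summed to 511 to 554 CPM under siCTR, 503 to 540 under siMYCN and 438 to 492 under siHAND2, where 1 of the 4 tested fell and 1 rose. RGS5, which makes up most of that sum, went from 493 ± 20.5 to 396 ± 35.5 CPM (-0.32, limma, adjusted p = 0.000425), and NOTCH3 from 36.97 ± 3.10 to 50.3 ± 4.39 (0.43, adjusted p = 0.000213). The part of these markers in the collagen changes was not tested.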

How the data were processed

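The authors deposited 1 table of CPM values with a column per library, 3 for each of siCTR, siMYCN and siHAND2; every column was matched to a sample by its name. Reads were aligned with STAR 2.5.1, and Partek is also named, per the submitters' processing notes. The counting rule, strand, annotation and filters are not given in the sources used here. The notes name hg19 and GRCh37, but 91.4% of gene starts lay within 5000 bases of their GRCh38 position and 5.63% of their GRCh37 position, so coordinates are GRCh38, counted from 1. A constant of 0.0001 in every deposited CPM value was subtracted. Of the low values, 79.4% to 80.9% were whole multiples of the smallest step (within 0.02 of a step, up to 20 steps); with 95% needed, no count model was used.

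Genes at 1 CPM or more in 3 or more of the 9 libraries were tested on log2(CPM + 1) with limma 3.58.1 in R 4.3.3 (all 3 groups in 1 fit, intensity trend, 10.1 prior degrees of freedom, two-sided, Benjamini-Hochberg over 14495 genes). Counting error covers counting only. The model was tested on simulated data. Transcript lengths are those of MANE Select transcripts in a GRCh37 annotation, matched by symbol. Collagen members and lists were chosen with earlier results of these data known. All tested members are named; values in every library are given for called members with a log2 change of at least 0.5, the 3 most abundant and their partner chains, to which some low or smaller-changing genes were added after their values were seen. Of each collagen pathway list the 2 largest called changes per contrast at a mean of at least 5 CPM are named. SERPINH1 and ITGA2 were added after their values were seen. Marker genes named with values were chosen after these were seen. Same-numbered libraries were checked for pairing by correlating their deviations from the group means. Between siMYCN and siCTR the values were 0.104 to 0.216, and pairs of unlike number reached at most 0.0397. Between siHAND2 and siCTR they were 0.122 to 0.267, but pairs of unlike number reached 0.183. Between siHAND2 and siMYCN they ran from -0.129 to 0.435, with up to 0.219 for unlike numbers. These values do not settle whether the numbers mark pairs. The main fit used no pairing, and the replicate block is given as an alternative.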

Additional observations from a re-analysis of the deposited data

How the results depend on the processing

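Tried were 18 alternatives: a pseudocount of 0.1 or of 5, dropping the filter or raising it to 5 CPM, median-ratio and quantile scaling, a fit of 2 groups alone, no intensity trend, a replicate block and each of the 9 libraries left out. Of 1107 values over 63 results (21 genes in 3 contrasts), 1072 kept their direction and side of the threshold, 18 lost and 10 gained a call, and 7 changed sign, none of which was a called value. Signs changed for COL14A1 in siMYCN (0.02) after median-ratio rescaling (-0.018), quantile normalization (-0.043) and without siCTR replicate 3 (-0.054, up to 0.071 over the left-out libraries); for COL5A1 in siMYCN without siCTR replicate 1 (0.031) or siMYCN replicate 3 (0.033, down to -0.163); for COL11A2 in siHAND2 against siMYCN without siMYCN replicate 3 (0.0042, down to -0.149); and for COL23A1 in siHAND2 without siHAND2 replicate 1 (-0.026, up to 0.183). A filter of 5 CPM left 12 collagen genes as expressed in place of 21 (27 at 0.5 CPM) and 6 called in siMYCN in place of 10, since fewer genes were tested. COL1A2, COL12A1 and COL14A1 passed 5 CPM only through the siHAND2 libraries, as COL16A1 and COL28A1 did at 0.5 CPM. Leaving out 1 library gave 8 to 12 calls in siMYCN, 14 to 15 in siHAND2 and 10 to 12 between the knockdowns, and 21 expressed genes each time. COL18A1 between the knockdowns (0.42) was not called without siHAND2 replicate 2 (0.36) or siHAND2 replicate 3 (0.39), and COL9A1 there (-0.45) not without siMYCN replicate 1 (-0.37) or siHAND2 replicate 3 (-0.41); the cause was not tested. With the replicate block, 12, 15 and 13 genes were called in siMYCN, siHAND2 and between the knockdowns. It added COL11A2 and COL4A2 in siMYCN and COL6A1 between the knockdowns (0.12, adjusted p = 0.032), and changed no other call. With no intensity trend, COL9A3 was called in siHAND2 (0.30) and COL11A2 in siMYCN (0.37); COL11A2 was also called there with a pseudocount of 0.1 (0.65) and without siCTR replicate 3 (0.46) or siMYCN replicate 1 (0.43). With no filter, COL13A1, COL16A1 and COL28A1 were added in siHAND2. Values below about 0.1 CPM rest on about 3 reads or fewer, and differences between groups that all lay there were not detectable at this depth.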

Other observations

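Of 2 rows of the table named after collagen genes but outside the family rule, COL6A4P1, a pseudogene of the type VI family, measured 0.0611, 0.112 and 0.0475 CPM in siCTR and at most 0.0805 CPM in the other 6 libraries. COL4A2-AS2, an antisense transcript of COL4A2, measured between 0 and 0.239 CPM over the 9 libraries.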
